A study of Mus musculus with 10 samples.

Results

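The photoreceptor ribbon synapse is represented here by 10 genes, taken as the rows of the deposited expression table that carry their symbols. All 10 were found among the 54532 genes of the table, and all 10 were among the 24508 genes with enough signal to be tested. They encode the calcium channel of the photoreceptor terminal and its modulator (*Cacna1f*, *Cacna2d4*, *Cacnb2* and *Cabp4*), proteins of the ribbon and the active zone (*Ctbp2*, *Bsn*, *Pclo* and *Rims2*), the vesicular glutamate transporter (*Slc17a7*) and a protein of the synaptic cleft (*Egflam*). RNA-seq was done on retinas of BALB/c mice, an inbred albino strain, at 2 months of age. The 5 retina samples of the normal light group (NL, 200 lux) and the 5 of the light damage group (LD, 15000 lux) had 1 day of that light after 12 hr of dark adaptation in both groups. The labels name no transgene or mutation. The study calls the samples of a group biological replicates, and the labels do not say whether each came from a separate mouse, so that p-values measure the spread between these samples. Each retina holds all retinal cell types, and in such tissue fewer cells of a type and less RNA per cell cannot be told apart.

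Rods and cones signal to bipolar and horizontal cells by releasing glutamate continuously in the dark, and light reduces that release. Release takes place beside the ribbon, a plate of protein that tethers vesicles above a cluster of L-type calcium channels, and mutations in the channel subunits or in *CABP4* are known from inherited disorders of vision in which transmission from photoreceptors is disturbed. Of the genes described here, *Cacna1f*, *Cacna2d4*, *Cabp4* and *Egflam* are known mainly from photoreceptors (some also from bipolar cells), whereas *Bsn*, *Pclo*, *Rims2*, *Cacnb2* and *Ctbp2* also serve other synapses or other cells.

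*Ctbp2* needs a remark before its values are read, because its locus on the minus strand of chromosome 7 (132987563 to 133124354, GRCm38) makes the ribbon protein RIBEYE from a start of its own inside the gene and the transcriptional co-repressor CTBP2 from starts upstream. In GENCODE M21, 12 coding transcripts are annotated, and the one that begins at 133015248 has a first exon of 1731 bases, against at most 285 bases in the other 11. With 1 value per gene, these transcripts are not told apart. The RefSeq window of 300 bases around the internal start (250 bases before and 50 after, GRCm38.p6, minus strand) is shown because that start is the one of the ribbon protein. Capitals mark a match to TAATCC, the core recognised by the photoreceptor factor CRX, here on the opposite strand as GGATTA and beginning 121 bases before the internal start.
Ctbp2 internal start, chr7:133015198-133015497: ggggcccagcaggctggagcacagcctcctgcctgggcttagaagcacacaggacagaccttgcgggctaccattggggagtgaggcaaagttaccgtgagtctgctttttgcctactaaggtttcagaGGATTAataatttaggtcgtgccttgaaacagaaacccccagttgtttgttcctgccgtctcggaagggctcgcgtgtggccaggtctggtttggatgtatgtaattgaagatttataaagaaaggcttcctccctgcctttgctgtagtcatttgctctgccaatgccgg

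The windows of 3 genes with a lower mean in LD are shown as well: *Cacna1f* (plus strand), *Slc17a7* (plus strand) and *Egflam* (minus strand). Their changes differed in size, and the values of *Egflam* overlapped between the groups. Capitals mark AGGTCA, the core bound by ROR nuclear receptors, or its reverse complement TGACCT. In *Cacna1f* the match begins 32 bases before the start, in *Egflam* 92 bases before it, and the window of *Slc17a7* holds no match.
Cacna1f, chrX:7606853-7607152: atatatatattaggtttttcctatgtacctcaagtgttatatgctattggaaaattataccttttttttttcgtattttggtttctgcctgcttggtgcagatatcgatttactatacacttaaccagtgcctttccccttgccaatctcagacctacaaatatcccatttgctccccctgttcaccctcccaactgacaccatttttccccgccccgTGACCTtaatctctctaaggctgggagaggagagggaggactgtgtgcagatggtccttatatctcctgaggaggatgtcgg
Slc17a7, chr7:45163671-45163970: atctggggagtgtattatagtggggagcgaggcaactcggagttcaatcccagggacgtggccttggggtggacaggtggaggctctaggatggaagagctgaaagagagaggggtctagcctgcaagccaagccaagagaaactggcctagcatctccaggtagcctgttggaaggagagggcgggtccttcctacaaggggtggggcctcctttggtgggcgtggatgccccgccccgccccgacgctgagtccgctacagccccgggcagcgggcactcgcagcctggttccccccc
Egflam, chr15:7398346-7398645: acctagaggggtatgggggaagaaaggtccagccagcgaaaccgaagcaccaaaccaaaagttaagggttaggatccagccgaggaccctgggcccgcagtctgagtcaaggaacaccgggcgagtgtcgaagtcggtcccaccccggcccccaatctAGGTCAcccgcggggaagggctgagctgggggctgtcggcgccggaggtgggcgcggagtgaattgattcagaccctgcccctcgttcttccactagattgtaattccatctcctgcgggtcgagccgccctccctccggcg

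RefSeq windows were matched by symbol for 7 of the 10 genes, with 10 windows in all, and *Cacna2d4*, *Cabp4* and *Rims2* were not matched. On either strand, TAATCC was found in 1 of the 10 windows and in 7.06% of the 32851 windows of the table. AGGTCA was found in 3 of the 10 windows, of which 2 overlap at *Egflam*, and in 16.3% of all. TGCTGA, the core of the response element of the rod factor NRL, was in 0 of the 10 and in 19.5% of all windows. These are matches of letters within 300 bases and say nothing of binding.

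Reads assigned to genes were recovered from the deposited FPKM (reads scaled to gene length and to the size of the library). They summed to 18965090 to 26832535 per retina, and the 10 genes had 1504 to 34604 reads in each retina. Sequencing was paired-end, and whether a read counted here is 1 read or 1 pair is not given in the sources used here. LD-4 and LD-6 were the closest pair of the LD group, with a chi-square per gene of 2.65 between their reads, and LD-1 and LD-7 were also close (3.65), as were NL-5 and NL-7 (2.87), where the other pairs within a group had 12.2 to 43.4. All 5 rod markers and 4 of 5 cone markers were lower in LD by the test described next (cone sums of 288 to 449 FPKM in NL and 35.5 to 148 FPKM in LD), and 0 of 6 bipolar, 0 of 6 amacrine, 0 of 6 ganglion and 0 of 4 horizontal cell markers passed it. The summed level of the rod markers was 6571 to 8432 FPKM in NL and 805 to 1736 FPKM in LD, and that of the bipolar markers 333 to 417 FPKM in NL and 289 to 436 FPKM in LD. Of 5 markers of microglia and macrophages 3 were higher, with sums of 13.9 to 22.9 and 27.0 to 67.2 FPKM, and of 5 Muller glia markers 1 was lower (sums of 813 to 1040 and 291 to 409 FPKM). Within both lists markers differed in direction, with log2 fold changes of -0.74 to 1.86 for microglia and macrophages and -2.09 to 0.79 for Muller glia. Pigment epithelium markers, from tissue beside the neural retina, summed to 48.6 to 141 FPKM in NL and 56.4 to 106 FPKM in LD with 0 of 6 past the test and endothelial markers to 6.27 to 10.5 and 5.85 to 18.4 FPKM (0 of 4). Lens markers stayed under 1 FPKM in sum in every retina, with 0 of 3 tested past the test. In none of these lists was a marker at 0 in all retinas, and their part in the values of the synapse genes was not tested.

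To ask how the output synapse of the photoreceptors had changed after 1 day of intense light, LD was compared with NL by limma on log2(FPKM + 0.1) over all 24508 genes, with Benjamini-Hochberg adjustment. The glutamate transporter gene *Slc17a7* and the channel modulator gene *Cabp4* fell most, to 39.4% and 43.1% of their NL mean, and the pore subunit gene *Cacna1f* fell to 50.9%. *Rims2* and *Cacnb2* fell to 57.7% and 60.9%. *Egflam*, *Cacna2d4*, *Pclo*, *Bsn* and *Ctbp2* were at 66.9%, 84.2%, 94.3%, 92.3% and 109% and did not pass an adjusted p under 0.01. The study's thresholds of 0.01 for the adjusted p and 2 for the fold change were passed by 3 of the 10 genes, all lower in LD, where 2.37% of all genes tested were lower, 4.13% higher and 6.51% changed in either direction. With the adjusted p under 0.01 alone, 5 of the 10 were lower (7.74% of all genes) and 0 higher (9.3% of all genes), and under 0.05 alone 6 were lower (13.4%). In the same 5 genes all LD retinas were below all NL retinas, which held for 10.6% of all genes tested. The median log2 fold change was -0.68 over the 10 genes and -0.01 over all genes tested.

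**Figure D1:**
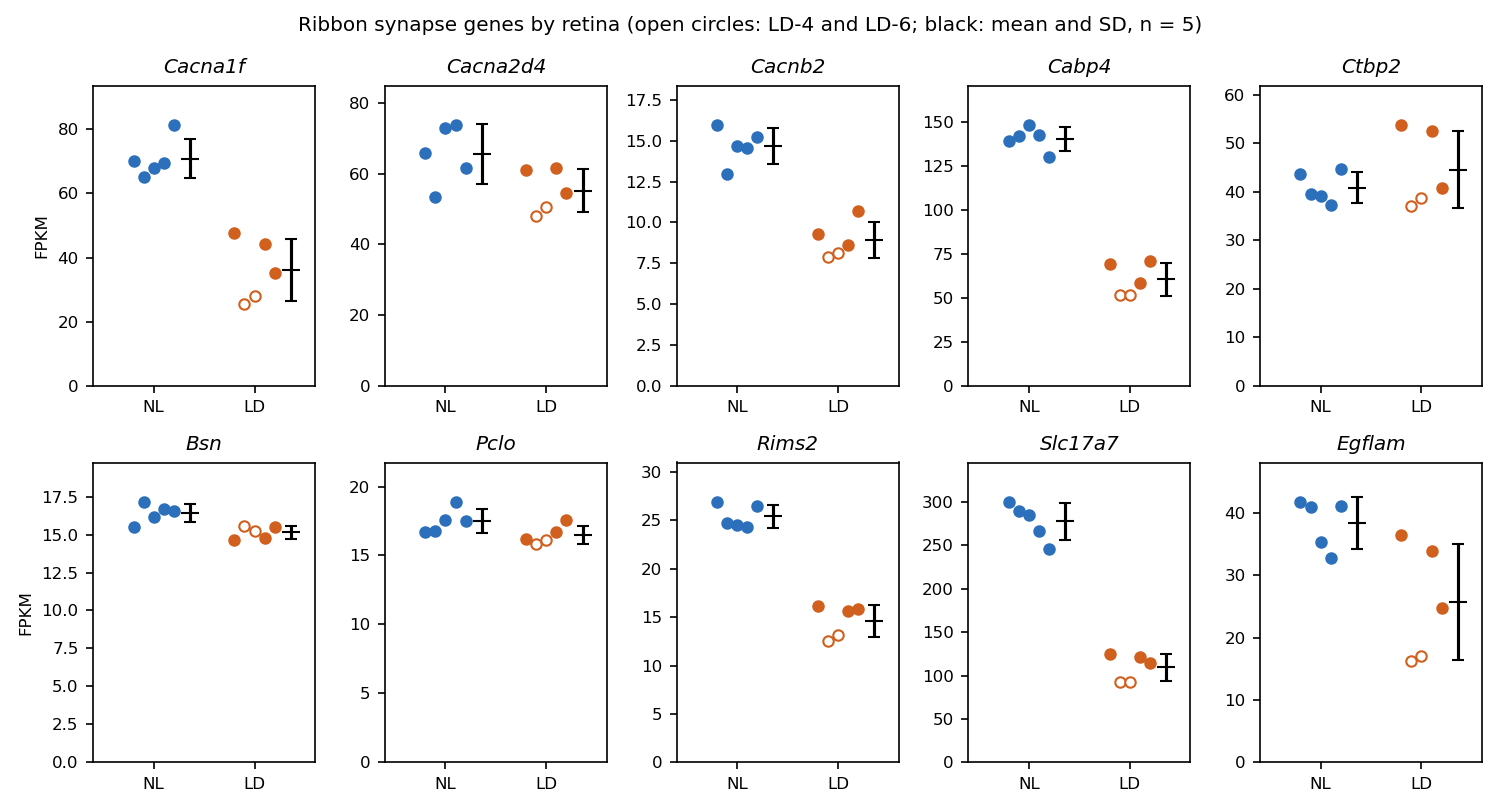
Level of each gene (FPKM, linear axis from 0) in the 5 NL retinas (blue) and the 5 LD retinas (orange, with LD-4 and LD-6 as open circles), and beside them the mean and SD of each group in black. The groups are apart in *Cacna1f*, *Cacnb2*, *Cabp4*, *Rims2* and *Slc17a7* and overlap in the other 5 genes.

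The channel genes did not change to the same extent. *Cacna1f*, on chromosome X from 7607083 to 7635196, encodes Cav1.4, the pore of the channel through which calcium enters the terminal. It was at 70.1, 65.2, 67.9, 69.6 and 81.3 FPKM in NL-1, NL-4, NL-5, NL-7 and NL-8, and at 47.6, 25.5, 27.9, 44.2 and 35.1 FPKM in LD-1, LD-4, LD-6, LD-7 and LD-8. The groups did not overlap, and within LD the values ran from LD-4 and LD-6 at the bottom to LD-1 and LD-7 at the top. The means were 70.9 ± 6.16 and 36.1 ± 9.71 FPKM (SD, n = 5 each), which on the log2 scale is a change of -1.01 (standard error 0.16, limma adjusted p = 0.00104, two-sided exact permutation p = 0.00794, the smallest that 5 retinas against 5 allow). This is at the limit of a 2-fold change, and it was -0.96 without NL-8, -0.90 without LD-4, -0.93 without LD-6 and -0.75 without both LD-4 and LD-6, with adjusted p values of 0.00138 to 0.00359. It was also short of 2-fold, at -0.88, without the authors' library factor.

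*Cacna2d4* (chromosome 6, 119236526 to 119352407) encodes the alpha-2-delta subunit that partners Cav1.4 in photoreceptors. Its levels were 65.9, 53.3, 72.8, 73.7 and 61.7 FPKM in the NL retinas, in the order given above, and 61.1, 48.0, 50.6, 61.5 and 54.5 FPKM in the LD retinas. The groups overlapped, with 2 of the 5 LD retinas, LD-4 and LD-6, under the lowest NL retina. The log2 fold change was -0.24 (95% interval -0.47 to -0.02, limma adjusted p = 0.104, exact permutation p = 0.0635), and -0.14 without LD-4 and LD-6. *Cacna2d4* overlaps *Lrtm2* on the other strand, which was at 14.8 FPKM in NL and 13.7 FPKM in LD.

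*Cacnb2* (chromosome 2, 14603088 to 14987908) encodes the beta subunit that brings the channel to the membrane. It was at 16.0, 12.9, 14.6, 14.6 and 15.2 FPKM in NL and at 9.32, 7.92, 8.13, 8.65 and 10.7 FPKM in LD. No LD retina reached the NL range. The log2 fold change was -0.71 (standard error 0.09, limma adjusted p = 1.48e-04), under 2-fold. Within its bounds lies the antisense gene *Gm13269*, at 1.25 to 23.4 FPKM in NL and 0.313 to 1.31 FPKM in LD, and whether reads were assigned by strand is not given in the sources used here.

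*Cabp4* (chromosome 19, 4135425 to 4139609, minus strand) encodes a calmodulin-like protein that binds Cav1.4 and shifts its opening to lower voltages. Its NL values were 139, 142, 148, 143 and 130 FPKM and its LD values 69.3, 51.8, 51.5, 58.6 and 71.2 FPKM. LD-8 and LD-1 were the highest of the LD retinas and were still far under the NL range. The means of 140.3 ± 6.66 and 60.5 ± 9.35 FPKM (SD, n = 5 each) differed by -1.23 on the log2 scale (standard error 0.10, limma adjusted p = 8.40e-06, exact permutation p = 0.00794).

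**Figure D2:**
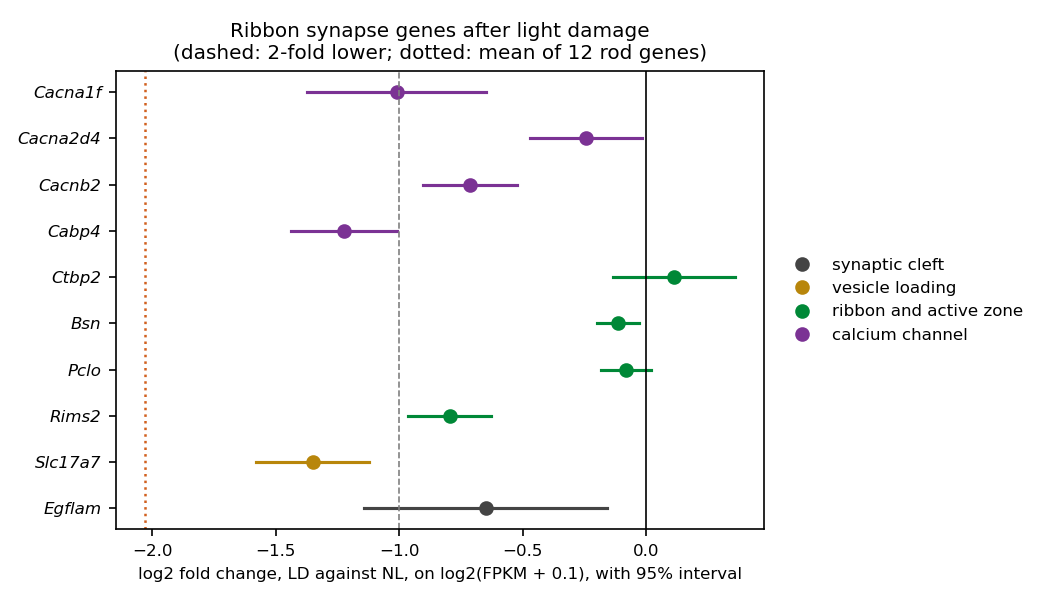
Log2 fold change of each gene, LD against NL, on the log2(FPKM + 0.1) scale with its 95% interval from limma, coloured by role. *Slc17a7*, *Cabp4* and *Cacna1f* lie beyond the dashed line of a 2-fold decrease, *Ctbp2*, *Bsn* and *Pclo* lie near 0, and all 10 lie to the right of the dotted line, the mean of 12 rod genes at -2.03.

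Because a ratio within a retina does not depend on the scaling of that library, the other 3 genes of the channel group were also set against *Cacna1f*, a comparison chosen after the values were seen. The ratios rest on the deposited gene lengths, whereas their differences between LD and NL do not. The ratio of *Cacna2d4* to *Cacna1f* FPKM was 0.758 to 1.07 in NL, with a median of 0.940, and 1.28 to 1.88 in LD, with a median of 1.56. The lowest LD ratio thus exceeded the highest NL ratio, with a mean difference of 0.77 on the log2 scale (two-sided exact permutation test, p = 0.00794, 0.0238 with Benjamini-Hochberg adjustment over the 3 ratios). It was 0.61 without LD-4 and LD-6 (exact p = 0.0179). With LD-4 and LD-6, LD-1 and LD-7, and NL-5 and NL-7 each averaged, it was 0.82 (exact p = 0.0286, over fewer splits). The p-values of these alternatives are not adjusted over the 3 ratios. *Cacna1f* itself changed by -1.01 and the median of all genes tested by -0.01, so a gene near that median also rises against *Cacna1f*. How many of all genes do so was not counted, and the difference is not shown to be particular to *Cacna2d4*. For *Cacnb2* the ratio was 0.187 to 0.227 in NL and 0.195 to 0.310 in LD, a difference of 0.29 (exact p = 0.143, adjusted 0.198). The ratio of *Cabp4* to *Cacna1f* was 1.60 to 2.18 in NL and 1.32 to 2.03 in LD, a difference of -0.21 (exact p = 0.198, adjusted 0.198). For both, the ranges overlapped. LD-1 and LD-7 had the lowest ratios of the LD group in all 3.

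**Figure D3:**
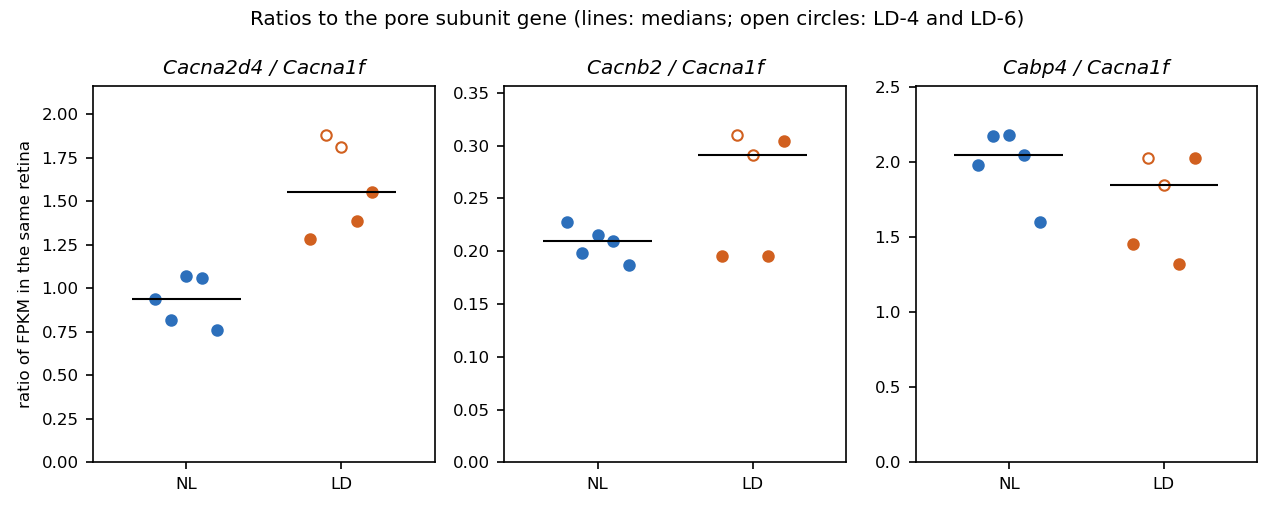
Ratio of the FPKM of *Cacna2d4*, *Cacnb2* and *Cabp4* to that of *Cacna1f* in the same retina (linear axes from 0), for the NL (blue) and LD (orange) retinas, with LD-4 and LD-6 as open circles and lines at the medians. The *Cacna2d4* ratio is at most 1.07 in NL and at least 1.28 in LD, and the other ratios overlap.

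The genes of the ribbon and of the large scaffolds stayed near their NL levels. *Ctbp2* was at 43.7, 39.6, 39.1, 37.2 and 44.7 FPKM in NL and at 53.8, 37.0, 38.7, 52.5 and 40.9 FPKM in LD. LD-1 and LD-7, at 132% and 129% of the NL mean, were above all NL retinas, while LD-4 and LD-6 were at 90.6% and 94.8%. The log2 fold change was 0.11 (95% interval -0.14 to 0.36, limma adjusted p = 0.513), an interval that leaves out a fall of the size seen in *Rims2*, and 0.26 without LD-4 and LD-6. This value does not separate RIBEYE from CTBP2 transcripts.

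*Bsn* (chromosome 9, 108096022 to 108190384, minus strand) encodes Bassoon, which anchors the ribbon to the active zone. Values were 15.5, 17.2, 16.2, 16.7 and 16.5 FPKM in NL and 14.6, 15.6, 15.2, 14.8 and 15.5 FPKM in LD. This was the narrowest spread of the 10 genes, with a highest LD value 1.06 times the lowest. The log2 fold change was -0.12 (95% interval -0.20 to -0.03, limma adjusted p = 0.0494, exact permutation p = 0.0238), and it was 0.02 when the authors' library factor was taken out.

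*Pclo* (chromosome 5, 14514918 to 14863459) encodes Piccolo, a relative of Bassoon of which a short form occurs at ribbons. It was at 16.7, 16.8, 17.6, 18.9 and 17.5 FPKM in NL and at 16.2, 15.9, 16.1, 16.7 and 17.6 FPKM in LD, with overlap. The log2 fold change was -0.08 (95% interval -0.18 to 0.02, adjusted p = 0.214), 0.05 without the library factor and 0.02 with TPM. Removing the factor moved the median of all genes by 0.12 and TPM by 0.11, and relative to that median *Bsn* was at -0.10 as deposited and -0.09 without the factor, and *Pclo* at -0.07 and -0.06. The antisense gene *Gm26954* within *Pclo* was at 52.1 to 87.1 FPKM in NL and 63.2 to 117 FPKM in LD (adjusted p = 0.126), and its share in the reads of *Pclo* was not tested.

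*Rims2* (chromosome 15, 39198261 to 39684372) encodes RIM2, the active zone protein that links vesicles to calcium channels and is the main large RIM of photoreceptors. It was at 26.9, 24.8, 24.5, 24.3 and 26.5 FPKM in NL and at 16.1, 12.6, 13.2, 15.6 and 15.8 FPKM in LD. The groups lay well apart, and LD-4 and LD-6 were again the lowest. The means of 25.4 ± 1.22 and 14.6 ± 1.65 FPKM (SD, n = 5 each) differed by -0.80 on the log2 scale (standard error 0.08, limma adjusted p = 3.11e-05, exact permutation p = 0.00794).

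*Slc17a7* (chromosome 7, 45163949 to 45176142) encodes VGLUT1, which loads synaptic vesicles with glutamate in photoreceptors and bipolar cells. It was the most abundant of the 10 genes in both groups. Its values were 300.1, 290, 284, 266 and 246 FPKM in NL and 125, 92.8, 92.0, 122 and 115 FPKM in LD. The LD retinas, LD-4 and LD-6 again lowest, were all far under the NL range. The means were 277 ± 21.4 and 109 ± 15.9 FPKM (SD, n = 5 each), and differed by -1.35 on the log2 scale (standard error 0.10, limma adjusted p = 6.80e-06, exact permutation p = 0.00794).

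*Egflam* (chromosome 15, 7206120 to 7398395, minus strand) encodes pikachurin, which in the cleft binds dystroglycan and holds the tips of the bipolar dendrites beside the ribbon. It was at 41.8, 40.9, 35.3, 32.7 and 41.2 FPKM in NL and at 36.4, 16.2, 17.0, 33.9 and 24.8 FPKM in LD. LD-4 and LD-6 were at 42.2% and 44.4% of the NL mean, LD-8 at 64.6%, and LD-7 and LD-1 at 88.4% and 94.8%, within the NL range. The log2 fold change of -0.65 had a wide 95% interval of -1.14 to -0.16 (limma adjusted p = 0.0511, exact permutation p = 0.0397), and without LD-4 and LD-6 it was -0.29 (adjusted p = 0.181). The highest LD value was 2.25 times the lowest, the largest such range of the 10 genes, followed by *Cacna1f* with 1.86.

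In 9 of the 10 genes LD-4 and LD-6 were the lowest pair of the LD group, the exception being *Bsn*. The same retinas had the lowest levels of rod genes. The mean of 12 rod genes, on the log2 scale, stood at 17.1% of NL in LD-4 and 18.2% in LD-6, and at 28.2% to 33.4% in LD-1, LD-7 and LD-8. With the rod mean of each retina subtracted from every gene, all 10 synapse genes were higher in LD than the rod genes at an adjusted p under 0.01 (limma), which was so for 93.1% of all genes. By more than 2-fold, 8 of the 10 were higher, against 92.1% of all genes, so this count is no more than that of genes in general. The 2 below 2-fold were *Slc17a7*, at 0.68 (standard error 0.17, adjusted p = 0.00124), and *Cabp4*, at 0.80 (standard error 0.16, adjusted p = 1.96e-04), followed by *Cacna1f* at 1.02. With the median of the rod genes in place of the mean, 4 of the 10 passed, against 83.5% of all genes.

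**Figure D4:**
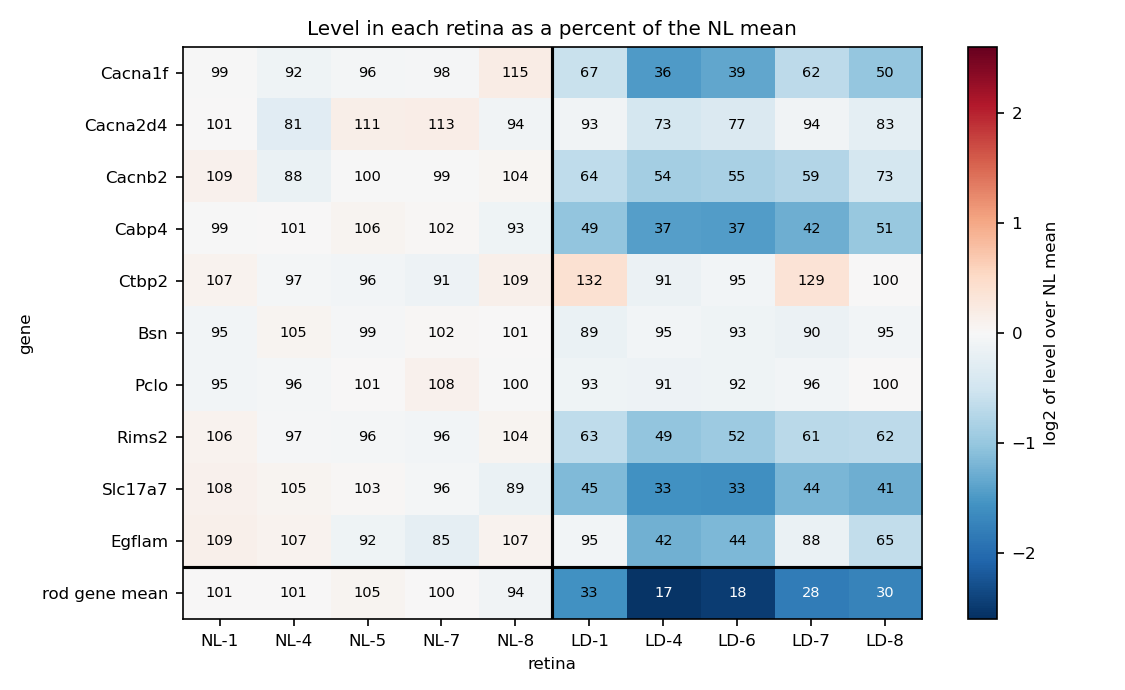
Level of each gene in each retina as a percent of its NL mean (numbers), coloured on a log2 scale, with the mean of 12 rod genes in the last row. LD-4 and LD-6 have the lowest values of the LD retinas in every row but that of *Bsn*, and *Bsn* and *Pclo* stay within 89.1% to 108% in all retinas.

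The order of the levels depends on the length each gene was scaled to, since the deposited length departs from that of the longest coding transcript by unlike amounts. For *Cacnb2* it was 13228 bases against 3945, for *Rims2* 10389 against 4800, and for *Cabp4* 1431 against 1433. On the deposited lengths the order of the NL means was *Slc17a7*, *Cabp4*, *Cacna1f*, *Cacna2d4*, *Ctbp2*, *Egflam*, *Rims2*, *Pclo*, *Bsn* and *Cacnb2*, and the ranges of *Cacna1f* and *Cacna2d4*, of *Ctbp2* and *Egflam*, of *Pclo* and *Bsn* and of *Bsn* and *Cacnb2* overlapped. With each gene rescaled to its longest coding transcript, a choice made after the values were seen, *Cacnb2* was at 49.2 in place of 14.7 FPKM in NL, level with *Egflam* and above *Pclo* and *Bsn*, and *Rims2* was at 55.0. *Slc17a7* was highest in both groups with either length, followed in NL by *Cabp4*. *Cacna1f* was above *Ctbp2* in every NL retina with either length, and its LD mean was below those of *Ctbp2* and *Cacna2d4*. In LD its range did not reach that of *Cacna2d4* with either length (25.5 to 47.6 against 48.0 to 61.5 FPKM on the deposited lengths, 38.2 to 71.1 against 78.4 to 100.4 FPKM on those of the transcripts). On the deposited lengths, the LD neighbours apart from each other were *Slc17a7* and *Cabp4*, *Pclo* and *Bsn*, and *Rims2* and *Cacnb2*. Changes of 1 gene between NL and LD do not depend on this length.

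Of 24 other genes of the photoreceptor terminal and of vesicle release, 3 were lower by more than 2-fold (2.37% of all genes tested) and 0 higher (4.13%). With the adjusted p under 0.01 alone 9 were lower (7.74% of all genes) and 1 was higher (9.3%). Their median log2 fold change was -0.20. *Unc119*, a lipid-binding protein of photoreceptors that also binds CABP4, fell from 584 ± 25.1 to 231 ± 41.3 FPKM (SD, n = 5 each; log2 fold change -1.36, limma adjusted p = 2.00e-05). *Tulp1*, needed for the terminal and for transport in the inner segment, fell by 1.29 on the log2 scale (adjusted p = 6.40e-04). *Unc13b*, a vesicle priming factor, fell by 1.06 (adjusted p = 6.74e-05). The release genes shared with other neurons were closer to their NL levels, with *Snap25* at -0.18, *Syt1* at 0.17 and *Syp* at -0.19, each with an adjusted p above 0.01. *Erc1*, an active zone scaffold, rose by 0.40 (adjusted p = 0.00681).

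Among 16 genes of the contact across the cleft, some are made in photoreceptors and others in bipolar cells. Of these 16, 2 were lower by more than 2-fold (2.37% of all genes tested) and 0 higher (4.13%). With the adjusted p under 0.01 alone 4 were lower (7.74% of all genes) and 1 was higher (9.3%). Their median was -0.07. The 2 were *Lrit3* (log2 fold change -1.20, adjusted p = 7.24e-04), which is made in photoreceptors and organises the dendrite opposite, and *Gnb5* (-1.15, adjusted p = 3.08e-05), a G protein subunit that photoreceptors also use in their own recovery from light. Of the same family of leucine-rich repeat proteins, *Lrit2* fell by 0.80 (adjusted p = 0.00171) and *Lrit1* by 0.55 (adjusted p = 0.00482), short of 2-fold. The receptor and channel genes of ON bipolar cells had values of -0.31 for *Grm6* (adjusted p = 0.0982) and 0.18 for *Trpm1* (adjusted p = 0.333). *Grik1*, a kainate receptor of OFF bipolar cells, rose from 19.5 ± 1.61 to 30.7 ± 3.71 FPKM (SD, n = 5 each; log2 fold change 0.65, adjusted p = 3.07e-04), short of 2-fold.

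Relatives of the 10 genes that serve other cells or synapses were 22 in number (*Rims1* is also among the release genes above), with a median of 0.04. By more than 2-fold, 0 were lower (2.37% of all genes tested) and 1 was higher (4.13%). With the adjusted p under 0.01 alone, 0 were lower (7.74%) and 2 were higher (9.3%). For the members with relatives in the list, the most abundant relative of each was set beside it, which need not be the closest in sequence. *Cacna1b* had a log2 fold change of 0.21, *Cacna2d2* 0.14, *Cacnb3* 0.37, *Cabp5* -0.30, *Ctbp1* 0.16, *Slc17a6* 0.02 and *Rims3* -0.14, each with an adjusted p above 0.01. *Cacna1d*, which like *Cacna1f* encodes an L-type channel, was at 0.10 (adjusted p = 0.393). *Cacnb1*, a relative of *Cacnb2*, was at 0.44 (limma adjusted p = 0.00251), short of 2-fold. As a share of the summed FPKM (on the deposited lengths) of the 7 channel pore genes measured, *Cacna1f* made up 68.4% to 74.1% in NL and 41.3% to 64.4% in LD. For *Slc17a7* the share among the 3 vesicular glutamate transporters was 93.4% to 95.2% in NL and 85.2% to 88.4% in LD. The relative that was higher by more than 2-fold was *Agrn*, which encodes agrin, another dystroglycan-binding matrix protein with laminin G domains. It rose from 25.1 ± 2.33 to 112 ± 54.6 FPKM (SD, n = 5 each; log2 fold change 2.02, adjusted p = 3.37e-04), so that *Egflam* made up 57.8% to 63.5% of the 2 genes in NL and 16.2% to 26.3% in LD.

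**Figure D5:**
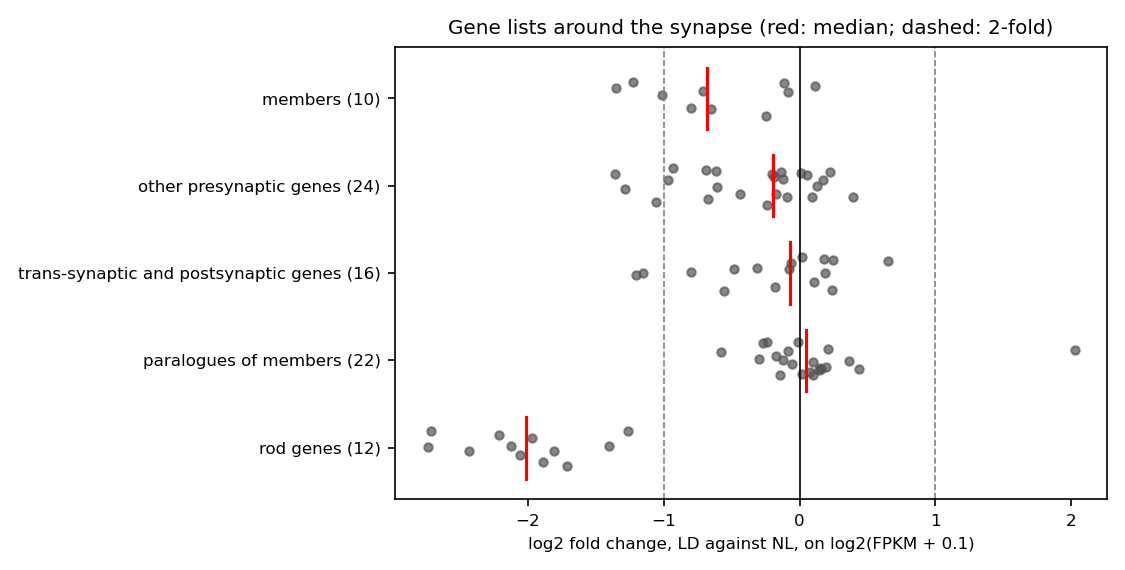
Log2 fold change, LD against NL, of every gene in the 10 synapse genes, the 3 lists described around them and the 12 rod genes (1 point a gene, red lines at the medians, dashed lines at 2-fold, vertical scatter without meaning). The medians are -0.68, -0.20, -0.07, 0.04 and -2.02 from top to bottom.

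Profiles over the 10 retinas were also compared with those of 12428 protein-coding genes whose mean reached 1 FPKM, as the root mean square difference of log2 values after centring each gene on its own mean. The 3 genes nearest to *Cacna1f* were *Zdhhc2* (0.0599), *Fsd1l* (0.0746) and *Kdm4c* (0.0884). Nearest to *Cabp4* were *Osbp2* (0.0600), *Tma7* (0.0655) and *Mtfr1* (0.0769). Nearest to *Slc17a7* were *Uhmk1* (0.0732), *Unc119* (0.0840) and *Jag1* (0.0964). Within the synapse genes, *Cacnb2* and *Rims2* were the nearest pair after *Bsn* and *Pclo*, at 0.0958, and *Cabp4* and *Slc17a7* were at 0.117. Genes outside the 10 were nearer in each case. They numbered 22 for *Cacnb2* and 37 for *Rims2*, 330 for *Bsn* and 207 for *Pclo*, and 26 for *Cabp4* and 13 for *Slc17a7*.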

How the data were processed

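The values are FPKM as deposited by the authors, in 1 table of 54532 genes by 10 retinas that also holds gene positions and lengths. The submitters' processing notes name TopHat2 2.0.9, Bowtie2 2.0.6 and build mm8, but the positions are those of GRCm38: of 54409 identifiers in GENCODE M21, 53499 have the same position there. The counting program, strand setting and test are not given in the sources used here. FPKM times length was a whole multiple of 1 read (within 0.01) for 100% of values. The authors' library sizes were the summed reads times a factor of 0.951 to 0.968 in NL and 1.04 to 1.07 in LD.

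From these values log2(FPKM + 0.1) was computed where 5 or more retinas reached 0.1 FPKM. It was fitted with limma 3.58.1 (R 4.3.3, intensity trend, no block, Benjamini-Hochberg over all genes tested). The procedure was checked on simulated data with independent retinas and changes larger than 2-fold. That check does not cover changes near 2-fold, close pairs of retinas or the authors' library factor. A fold change on the log2(FPKM + 0.1) scale understates that of low genes. Exact permutation tests used all 252 splits. Python 3.11.15, numpy 2.4.6, pandas 2.3.3, scipy 1.17.1 and matplotlib 3.10.9 were used. The members and lists were chosen with earlier results of these data known. Named genes are all members, up to 4 genes called in each direction per list, the most abundant relative of each member, and the 3 nearest profiles of called members. *Lrit1*, *Lrit2*, *Cacna1d*, *Cacnb1*, *Snap25*, *Syt1*, *Syp*, *Erc1*, *Grik1*, *Grm6* and *Trpm1* were named after their values were seen. The rod genes were 12 genes of phototransduction and of the outer segment, used as a group and not reported by name here.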

Additional observations from a re-analysis of the deposited data

How the results depend on the processing

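Of 24 alternatives for each gene, *Slc17a7* and *Cabp4* stayed past both thresholds in 24 (log2 fold changes of -1.40 to -1.20 and -1.29 to -1.08), and *Cacnb2* and *Rims2* kept an adjusted p of at most 0.00619 and a change under 2-fold. *Cacna1f* kept its direction in 24 and its 2-fold change in 14; beside the values given above it was -0.99 with a pseudocount of 1 FPKM, -0.91 with TPM and -0.97 with quantile normalization. The number of genes past both thresholds was 3 or 2 throughout; with no minimum fold it was 6 at an adjusted p under 0.05 and 5 under 0.01. *Bsn* (0.0176) and *Pclo* (0.0493) changed sign without the library factor and *Pclo* (0.0201) with TPM, at adjusted p values of 0.451 to 0.807. Relative to the rod genes the number past the thresholds was 7 or 8 with each retina left out, and 4 with the rod median. Over the retinas of the 4 shared replicate numbers, *Cacna1f* was at -0.94 with the replicate block (adjusted p = 0.0151) and without it (adjusted p = 0.00800), and 2 genes passed in both; 7 passed relative to the rod genes with the block. The labels do not say what a replicate number marks, so the numbers are not taken as pairs. The correlation of deviations between retinas of the same number was -0.09 to 0.07, which over 4 numbers cannot decide whether they are pairs. With the closest pairs of retinas averaged, 3 genes passed both thresholds and *Cacna1f* was at -1.02 (limma adjusted p = 0.00675). LD-4 and LD-6 together were left out as an alternative chosen after seeing the data.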
